A study of Mus musculus with 24 samples.

Results

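The genes described here are 30 genes of cholesterol and fatty acid synthesis, chosen by name from the 55487 genes counted in RNA-seq libraries of mouse LSK cells. LSK cells (lineage-negative, Sca1+, KIT+) are the fraction of marrow or fetal liver in which the blood stem cells and early progenitors lie. ME cells came from Tet-On-ME mice, in which MLL::ENL, a leukaemia fusion of the MLL (Kmt2a) and ENL (Mllt1) genes, can be switched on. Control cells are given by the labels only as control. ME and control cells were each taken at embryonic day 16 (E16) from liver, and at postnatal day 14 (P14) and 8 weeks (8wk) from bone marrow. Sorted cells were kept in culture for 48 h with induction of the fusion there, and the labels do not say whether control cultures received the inducing agent. The 6 groups held 4 libraries each. By role, the genes were 3 regulators, 7 enzymes of the mevalonate steps, 11 enzymes of the sterol steps, 1 sterol transport gene and 8 fatty acid synthesis genes.

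Cells build cholesterol from acetyl-CoA through mevalonate, farnesyl pyrophosphate, squalene and lanosterol, and build fatty acids from the same acetyl-CoA, which is then elongated and desaturated. Both routes are under the SREBP transcription factors, which are held in the endoplasmic reticulum by INSIG proteins when sterols are plentiful and move to the nucleus when sterols run low. Dividing blood progenitors need both products for new membranes.

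Library totals ranged from 33.9 to 69.3 M counts (median 47.1 M). After a filter on low counts 18931 genes were tested with edgeR, and all 30 genes passed it. The smallest count of any of them in a library was 91 (Scd1). Levels are CPM, counts scaled to a common TMM-adjusted library size, and log2 fold changes carry the standard error (SE) of the fit. The labels do not say that replicates were separate animals, so p-values measure only the spread between these libraries, which may be technical. The 8 LSK markers summed to between 2066 and 3835 CPM in every library, with each of them present in every group. Mllt1, part of the fusion, was higher in every ME library than in any control library of its age. Its lowest ME level was 35.7 CPM and its highest control level was 29.8 CPM. The 6 hepatocyte markers summed to at most 27.0 CPM, and Serpina1a was at 0 in all 4 libraries of 5 of the 6 groups. The 6 markers of adipocytes and stroma summed to at most 2.29 CPM. Replicate 4 of E16 ME, replicate 4 of 8wk ME and replicate 1 of 8wk control stood apart from the rest of their groups. Their 7 neutrophil markers summed to 41.8, 38.4 and 834 CPM, against 843 to 1031 in the other E16 ME libraries, 864 to 1394 in the other 8wk ME libraries and 18.0 to 32.5 in the other 8wk controls. Fewer cells of a type and less RNA per cell cannot be told apart in these bulk samples. The 6 cycling markers summed to less in every ME library than in any control library of the same age, with 1068 to 1355 against 1542 to 1608 CPM at E16, 1087 to 1182 against 1404 to 1628 at P14 and 1205 to 1296 against 1392 to 1785 at 8wk. Their part in the results below was not tested.

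Promoter windows are shown because the SREBP proteins act at short sequences close to the start of many of these genes, often beside NF-Y and Sp1 sites. RefSeq promoter sequences (GRCm38.p6) were at hand for 23 of the 30 genes, and the 250 bases before each start were searched on both strands for the sterol regulatory element core TCACNCCAC, the NF-Y box CCAAT and the GC box GGGCGG. Where RefSeq gives a gene several starts, as for 3 of the 23, a match in any of its windows was counted, so such genes had more chances of one. The NF-Y box was found in 18 of the 23 genes, against 37.5% of all 27025 genes in the table. The GC box was found in 19 of 23, against 35.4% of all genes. The sterol regulatory element core was found in 1 of 23, against 1.22% of all genes. Such a match is a description of the letters and not a bound site. Starts are those of RefSeq, and some windows run into the gene as GENCODE gives it, so windows with more than 30 bases inside it, such as those of Fads2 and Elovl6, are not shown. Shown are the windows of the 4 genes with the smallest adjusted p over the ME comparisons among the others, and of Hmgcs1, chosen after its motif was seen. They are Acly (GRCm38.p6 chr11:100528001-100528250, minus strand), Lss (chr10:76531355-76531604, plus strand), Acat2 (chr17:12960726-12960975, minus strand), Ebp (chrX:8193513-8193762, minus strand) and Hmgcs1 (chr13:119690101-119690350, plus strand). The last 17 bases of the Lss window and the last 22 of the Acat2 window lie inside the GENCODE gene, and the other 3 windows lie outside it. Each is written 5′ to 3′ on the gene's strand, with matches in capitals; CCGCCC and ATTGG are the GC box and the NF-Y box on the other strand.
Acly: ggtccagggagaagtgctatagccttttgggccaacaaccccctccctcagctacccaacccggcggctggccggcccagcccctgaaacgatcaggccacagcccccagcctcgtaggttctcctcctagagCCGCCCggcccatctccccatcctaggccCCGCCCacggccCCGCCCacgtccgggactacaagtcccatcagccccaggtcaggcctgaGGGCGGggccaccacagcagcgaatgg
Lss: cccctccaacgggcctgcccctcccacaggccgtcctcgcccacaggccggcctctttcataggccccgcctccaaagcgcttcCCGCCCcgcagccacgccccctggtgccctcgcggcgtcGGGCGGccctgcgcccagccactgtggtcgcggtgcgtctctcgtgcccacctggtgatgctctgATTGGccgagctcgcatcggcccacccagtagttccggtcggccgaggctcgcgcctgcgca
Acat2: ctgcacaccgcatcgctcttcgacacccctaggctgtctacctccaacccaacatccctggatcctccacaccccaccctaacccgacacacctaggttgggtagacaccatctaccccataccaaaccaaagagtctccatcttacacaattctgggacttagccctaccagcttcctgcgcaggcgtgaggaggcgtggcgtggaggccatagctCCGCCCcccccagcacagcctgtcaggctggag
Ebp: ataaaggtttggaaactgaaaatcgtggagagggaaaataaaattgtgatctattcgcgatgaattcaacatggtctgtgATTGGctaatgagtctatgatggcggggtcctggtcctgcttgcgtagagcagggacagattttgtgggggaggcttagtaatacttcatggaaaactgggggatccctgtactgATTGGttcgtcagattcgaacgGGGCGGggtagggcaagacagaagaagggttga
Hmgcs1: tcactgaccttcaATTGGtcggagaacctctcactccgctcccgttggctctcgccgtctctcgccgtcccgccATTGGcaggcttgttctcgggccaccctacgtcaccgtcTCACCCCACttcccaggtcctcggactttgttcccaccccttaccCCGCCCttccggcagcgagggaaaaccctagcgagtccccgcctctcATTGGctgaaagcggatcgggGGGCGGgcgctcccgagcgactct
Acly held 4 GC boxes, the nearest 27 bases before the start. Lss held 2 GC boxes and an NF-Y box 62 bases before the start. The bases just after that RefSeq start were not found in a GENCODE transcript of Lss, so its distances are uncertain. For Acly, Acat2 and Ebp they were found, and Hmgcs1 was not checked. Acat2 held 1 GC box, at 33 bases, and Ebp a GC box at the same distance with NF-Y boxes at 55 and 170 bases. Hmgcs1 held the sterol regulatory element core 137 bases before the start, 3 NF-Y boxes and 2 GC boxes.

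Scaled by exon length, the highest levels in these cells were those of fatty acid enzymes. In controls at E16, P14 and 8wk, Scd2, a desaturase that makes monounsaturated fatty acids, averaged 122, 214 and 161 CPM per kb of exon. Acly, which makes cytosolic acetyl-CoA from citrate, averaged 128, 196 and 139 CPM per kb. Of the sterol route, Acat2, the first enzyme of the mevalonate steps, averaged 98.8, 138 and 134 CPM per kb, and Cyp51, the lanosterol demethylase, 70.8, 93.3 and 119.9. The lowest levels were those of Scd1, Fdps and Acaca. Scd1, the other desaturase, averaged 0.583, 3.46 and 5.32 CPM per kb in controls of the same ages. Fdps, the farnesyl pyrophosphate synthase, averaged 2.75, 3.44 and 3.40, and Acaca, the acetyl-CoA carboxylase of fatty acid synthesis, 2.98, 3.89 and 3.16 CPM per kb. Some counts are uncertain, because stretches of 50 bases also occur in other genes: 39.1% of those of Acat2 (in Acat3), 30.4% of Acaca, 26.2% of Fdps, 17.7% of Idi1, 9.87% of Tm7sf2 and 9.38% of Fdft1. The strand setting of the counting is not given in the sources used here. Exons on the other strand overlap 18.3% of Fdft1 (Ctsb) and 12.1% of Hmgcs1. Exons on the same strand overlap 26.7% of Fdps (Gm43738) and 12.1% of Tm7sf2 (Vps51). How reads there were counted is not given, so the levels of both genes are uncertain.

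**Figure D1:**
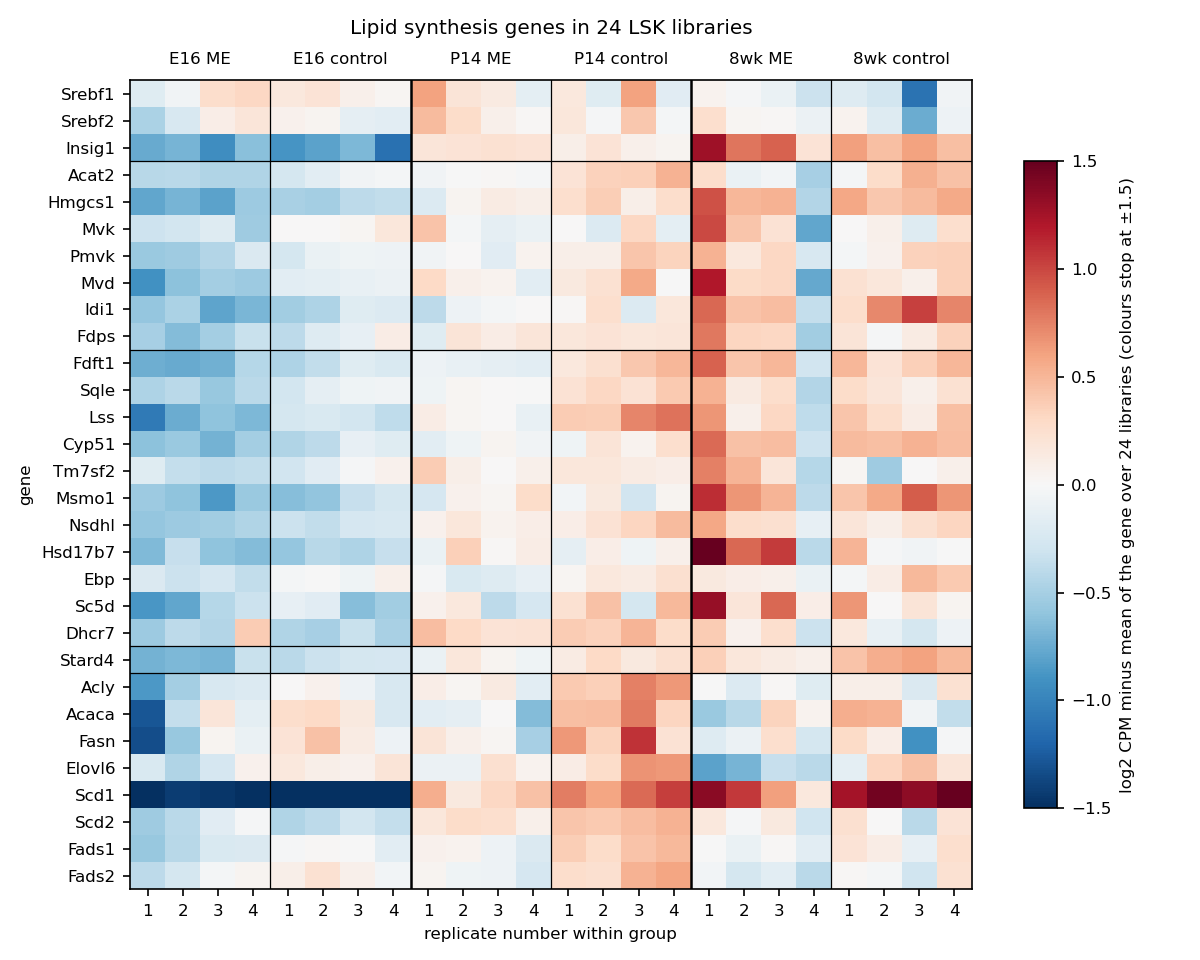
Heat map of the 30 genes (rows, grouped by role) in the 24 libraries (columns, ME left of control at each age), as log2 CPM minus the mean of the gene over all libraries. E16 libraries are mostly blue (low) and 8wk libraries mostly red for the sterol genes, and replicate 4 of 8wk ME is blue beside 3 red replicates.

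None of the regulators passed the test in an ME comparison with all libraries in the fit. Srebf1 (ENSMUSG00000020538; GRCm38 chromosome 11, 60199089 to 60222581), the SREBP best known for fatty acid genes, had 106, 116, 144 and 149 CPM in E16 ME libraries and 134, 138, 126 and 122 CPM in E16 controls. At P14 it had 182, 138, 132 and 108 CPM in ME and 134, 106, 182 and 106 CPM in control libraries, and at 8wk 125, 119, 112 and 96.3 CPM in ME and 105, 99.3, 55.7 and 116 CPM in control libraries. The groups overlapped at every age, and replicate 3 of the 8wk controls was the lowest library of all.

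Srebf2 (ENSMUSG00000022463; chromosome 15, 82147181 to 82205379), the SREBP best known for sterol genes, had 279, 328, 417 and 439.8 CPM in E16 ME and 406, 399, 354 and 347 CPM in E16 control libraries. At P14 it had 538, 469.5, 409.9 and 394 CPM in ME and 438, 382, 515 and 380.1 CPM in controls, and at 8wk 462, 396, 394 and 364 CPM in ME and 404, 339, 231 and 368 CPM in controls. These groups overlapped too. Neither gene was called in an ME comparison (edgeR log2 fold changes of Srebf1 -0.01 ± 0.20, 0.08 ± 0.20 and 0.27 ± 0.20 and of Srebf2 -0.04 ± 0.16, 0.08 ± 0.16 and 0.27 ± 0.16 at E16, P14 and 8wk).

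Insig1 (ENSMUSG00000045294; chromosome 5, 28071363 to 28078662), the sterol-sensing anchor and itself an SREBP target, had 95.2, 99.4, 84.2 and 104 CPM in E16 ME and 87.4, 92.1, 100.4 and 73.9 CPM in E16 control libraries. At P14 it had 182, 185, 188 and 185 CPM in ME and 170.5, 185, 169.6 and 165 CPM in controls, and at 8wk 388, 281, 297 and 185 CPM in ME and 246, 219, 243 and 219 CPM in controls. The 8wk ME group held both the highest and the lowest 8wk library, its replicates 1 and 4. With all libraries the gene was not called with the fusion (log2 fold changes 0.11 ± 0.14, 0.10 ± 0.14 and 0.31 ± 0.14, edgeR adjusted p = 0.606, 0.658 and 0.0986). Without the 3 libraries that stand apart it was called higher in 8wk ME (0.50, adjusted p = 0.00185), and also without replicate 4 of 8wk ME alone (0.47).

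**Figure D2:**
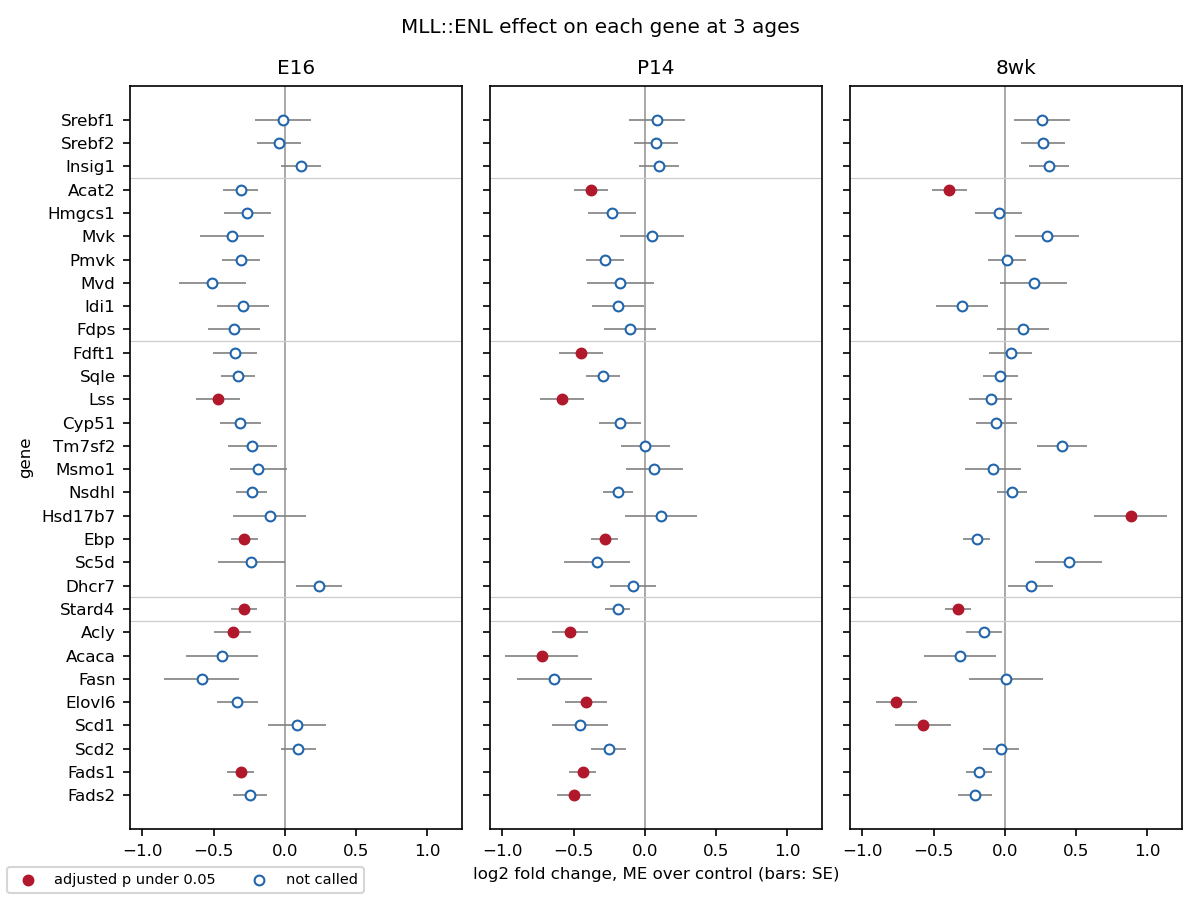
Log2 fold change of ME over control for each of the 30 genes (rows, grouped by role) at E16, P14 and 8wk (panels), with bars of 1 SE and filled points for an edgeR adjusted p under 0.05. Every filled point at E16 and P14 lies left of 0, and at 8wk Hsd17b7 lies right of it at 0.88.

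At E16 most of the genes had lower levels in ME liver LSK cells, by small amounts, and a minority of them were called. edgeR called 5 of the 30 genes (16.7%), each lower in ME: Lss and Ebp of the sterol steps, the sterol carrier gene Stard4, and Acly and Fads1 of fatty acid synthesis. Over all genes tested 21.8% were called in this comparison, 13.3% higher and 8.47% lower. On library size alone, without TMM factors, 74.6% of all called genes were higher, against 61.1% with them. The log2 fold change was negative for 26 of the 30 genes, with a median of -0.29 against 0.02 over all genes tested. In 11 genes all ME libraries lay below all control libraries, which held for 12.8% of all genes tested. Of the megakaryocyte markers 5 of 6 were called lower in E16 ME, and their sum was 43.9 to 72.8 CPM in ME against 188 to 493 CPM in controls. Of the mast cell and basophil markers 2 of 6 were called lower, with sums of 25.5 to 82.8 CPM in ME against 74.9 to 106 CPM in controls. Neutrophil markers summed to 41.8 to 1031 CPM in ME against 1082 to 5653 CPM in controls, with 1 of 7 called lower. B cell markers summed to 65.2 to 149 CPM in ME against 50.9 to 62.9 CPM in controls, without overlap. Of these 6 markers edgeR called 1 higher. Of the LSK markers 3 of 8 were called higher, with sums of 2605 to 3356 CPM in ME against 2429 to 2973 CPM in controls. The part of these markers in the result was not tested.

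Lss (ENSMUSG00000033105; chromosome 10, 76531588 to 76557138), the lanosterol synthase that closes the sterol rings, had 58.9, 73.3, 80.4 and 76.8 CPM in E16 ME libraries, against 102, 104, 101 and 93.9 CPM in controls. All ME libraries lay below all controls, and the log2 fold change was -0.47 ± 0.15 (edgeR adjusted p = 0.0321). Ebp (ENSMUSG00000031168; chromosome X, 8185329 to 8193512), the sterol isomerase, had 84.4, 77.9, 82.1 and 75.4 CPM in ME, against 95.9, 97.4, 93.6 and 103 CPM in controls, again without overlap (-0.29 ± 0.10, adjusted p = 0.0346). Stard4 (ENSMUSG00000024378; chromosome 18, 33199355 to 33213862), which carries cholesterol between membranes, had 79.2, 81.2, 80.2 and 103 CPM in ME, against 98.2, 104, 108 and 108 CPM in controls. Its groups overlapped through replicate 4 of ME, a library set apart by its neutrophil markers (-0.28 ± 0.09, adjusted p = 0.0275).

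Of the fatty acid genes, Fads1 (ENSMUSG00000010663; chromosome 19, 10182888 to 10196877), a desaturase of polyunsaturated fatty acids, had 149, 165, 187 and 189 CPM in E16 ME, against 217, 223, 218 and 197 CPM in controls. No ME library reached the controls (-0.31 ± 0.09, edgeR adjusted p = 0.0207). Acly (ENSMUSG00000020917; chromosome 11, 100476353 to 100528000) had 389.9, 497, 599 and 612 CPM in ME, against 707, 735, 669 and 595 CPM in controls. Replicates 3 and 4 of ME lay above the lowest control (-0.37 ± 0.13, adjusted p = 0.0428).

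Among the genes that were not called at E16, all 7 mevalonate genes had negative log2 fold changes, between -0.51 and -0.26, and 4 of them had no overlap between groups. The 2 desaturases Scd1 (0.09 ± 0.20) and Scd2 (0.10 ± 0.12), Dhcr7, which makes cholesterol in the last step (0.24 ± 0.16), and Insig1 were the genes with positive values. On library size alone edgeR called 0 of the 30 genes, against 5 with TMM factors and 5 by DESeq2 or limma-voom. With a GC correction 4 were called, of which 2 were among these 5. Leaving out 1 library at a time, the number called was 1, 0 and 3 without ME replicates 1, 2 and 3, and 2, 0, 0 and 3 without control replicates 1 to 4. Over all genes tested, 2522 were called higher and 1603 lower with all libraries. These numbers were 2196 and 1152 without ME replicate 2, and 2028 and 1100 without control replicate 2. Without the 3 libraries that stand apart, 13 of the 30 genes were called, all lower and including the 5 named above. In that fit 7.54% of all genes tested were called lower.

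At P14 most of the called genes were of fatty acid synthesis. edgeR called 9 of the 30 genes (30%), each lower in ME marrow cells: Acly, Acaca, Elovl6, Fads1 and Fads2 of the 8 fatty acid genes, Lss, Fdft1 and Ebp of the 11 sterol genes, and Acat2 of the 7 mevalonate genes. Of all genes tested 22% were called, 12.7% higher and 9.35% lower. On library size alone 70.5% of all called genes were higher, against 57.5% with TMM factors. All 8 fatty acid genes had negative log2 fold changes, with a median of -0.48, and in 7 of them no ME library reached a control library. Over the 30 genes the median was -0.24 against 0.03 for all genes tested, and 13 genes lay lower without overlap, against 12.4% of all genes. Of the 6 B cell markers edgeR called 5 higher in P14 ME, DESeq2 6 and limma-voom 0. Their sum was 246, 119, 44.8 and 38.3 CPM in ME replicates 1 to 4, against 37.5 to 43.8 CPM in controls. Of the 10 monocyte and macrophage markers edgeR called 4 higher, DESeq2 5 and limma-voom 0. These summed to 17.0 to 63.6 CPM in ME against 13.5 to 47.3 CPM in controls. Of the LSK markers 3 of 8 were called higher and 1 lower, with sums of 2702 to 3069 CPM against 2711 to 3105 CPM. Of the megakaryocyte markers 1 of 6 was called higher (30.4 to 108 against 54.0 to 115 CPM). Of the mast cell and basophil markers 1 of 6 was called lower (9.56 to 41.5 against 18.6 to 81.5 CPM). The part of all these markers in the result was not tested.

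Acly had 755, 719, 772 and 630.0 CPM in P14 ME libraries, against 923, 905, 1194 and 1111 CPM in P14 controls. The groups did not overlap (log2 fold change -0.52 ± 0.13, edgeR adjusted p = 0.00493). Fads1 had 229, 227, 208 and 189 CPM in ME, against 284, 267, 296 and 308 CPM in controls, again apart (-0.44 ± 0.09, adjusted p = 0.00177). Fads2 (ENSMUSG00000024665; chromosome 19, 10062765 to 10101746), its neighbour on the chromosome and the other polyunsaturated fatty acid desaturase, had 388, 360.0, 358 and 317 CPM in ME, against 453, 445, 541 and 568 CPM in controls. Its ME libraries also all lay below the controls (-0.50 ± 0.12, adjusted p = 0.00397).

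Lss had 132, 125, 123 and 113 CPM in P14 ME, against 159.9, 159, 203 and 215 CPM in controls. Its groups stood apart (-0.58 ± 0.15, edgeR adjusted p = 0.00916). Acat2 (ENSMUSG00000023832; chromosome 17, 12942890 to 12960747) had 264, 272, 277 and 269.6 CPM in ME, against 314, 347, 350.0 and 394 CPM in controls (-0.38 ± 0.12, adjusted p = 0.0297). Ebp had 96.5, 83.4, 85.5 and 89.8 CPM in ME, against 99.9, 109, 107 and 115 CPM in controls (-0.28 ± 0.10, adjusted p = 0.0375). The ME libraries of both genes lay below their controls, and reads of Acat2 may be shared with Acat3.

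The other called genes at P14 were Fdft1, the squalene synthase (-0.45 ± 0.15), Elovl6, an elongase of saturated fatty acids (-0.41 ± 0.15), and Acaca (-0.73 ± 0.26), with edgeR adjusted p between 0.0395 and 0.0451. Fasn, the fatty acid synthase, was at -0.63 ± 0.26 and was not called (adjusted p = 0.0915). Replicate numbers appeared to pair the P14 libraries only in part. With the number as a block over all libraries Ebp was no longer called (edgeR adjusted p = 0.0504). In the P14 libraries alone with that block 11 genes were called, with Sqle, the squalene epoxidase, Fasn and Scd1 added and Ebp absent. Of all 16895 genes tested in that fit, 2588 were called higher and 1739 lower. In the main fit these were 2398 and 1770 of 18931. Only 4 genes kept their P14 call under all 20 alternatives: Lss, Acly, Fads1 and Fads2. Leaving out 1 library gave 5, 4 and 4 called genes without ME replicates 1, 2 and 4. It gave 5, 4 and 4 without control replicates 2, 3 and 4. Calls over all genes tested fell too, from 2398 higher and 1770 lower to 1977 and 1203 without ME replicate 2. Without control replicate 4 they were 1767 and 1108.

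**Figure D3:**
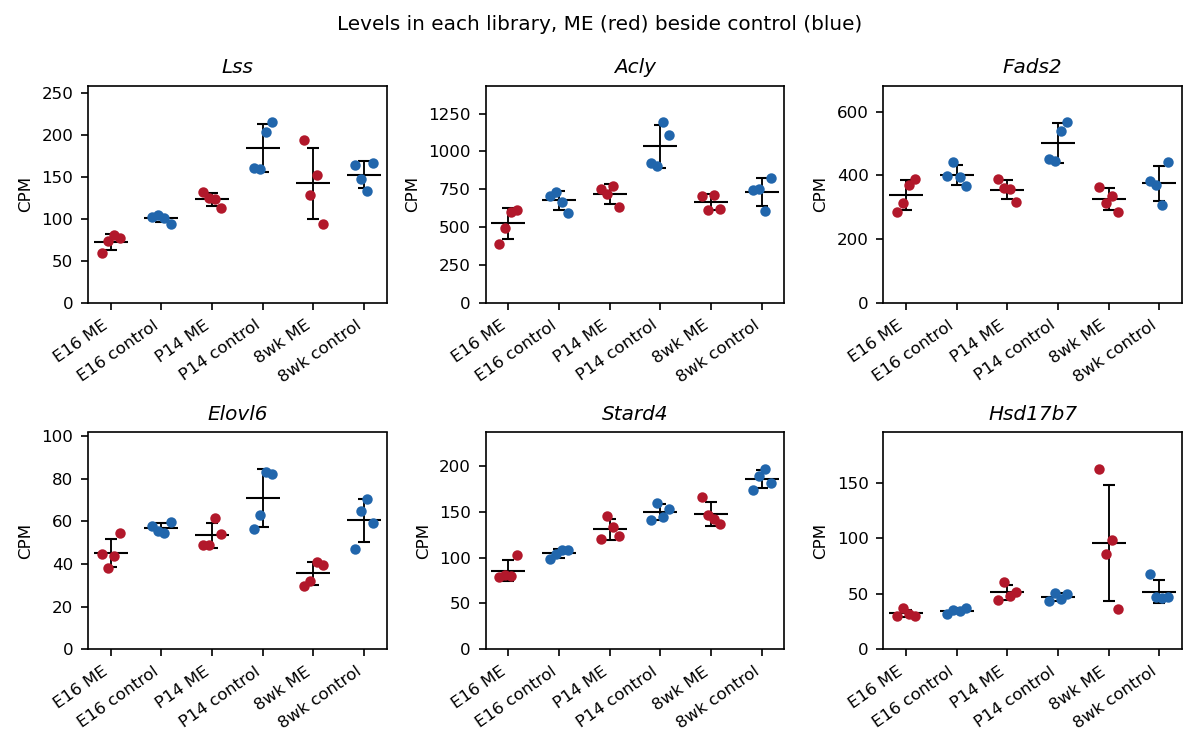
CPM per library of 6 genes in the 6 groups, ME (red) left of control (blue) at each age, with mean and SD (n = 4). Lss, Acly and Fads2 are apart at P14, Elovl6 and Stard4 are apart at 8wk, and Hsd17b7 at 8wk ME spreads between 36.0 and 162 CPM.

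At 8wk few of these genes were called with the fusion, and the only one called higher, Hsd17b7, was not called by limma-voom. edgeR called 5 of the 30 (16.7%): Elovl6, Scd1, Stard4 and Acat2 lower in ME and Hsd17b7 higher. Of all genes tested 28.5% were called, 14.2% higher and 14.3% lower. The log2 fold changes were positive for 14 and negative for 16 genes, and the median of -0.03 was near that of all genes tested, -0.02. Only Elovl6 and Stard4 lay lower without overlap, which held for 9.04% of all genes. The LSK markers themselves summed to 3028 to 3835 CPM in 8wk ME against 2066 to 2504 CPM in 8wk controls, without overlap, with 4 of 8 called higher and 1 lower. Of the 10 monocyte and macrophage markers edgeR called 6 higher in 8wk ME and limma-voom 3. These summed to 67.2 to 489 CPM in ME against 22.3 to 307 CPM in controls. B cell markers summed to 64.0 to 83.2 CPM in ME against 35.7 to 60.8 CPM in controls, without overlap. Of these 6 markers edgeR called 1 higher and limma-voom 0. Of the mast cell and basophil markers 1 of 6 was called lower (29.9 to 85.2 CPM in ME against 75.3 to 178 CPM in controls). Of the erythroid markers 1 of 8 was called lower (59.9 to 167 against 81.4 to 185 CPM). The part of all these markers in the result was not tested.

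Elovl6 (ENSMUSG00000041220; chromosome 3, 129532355 to 129638495) had 29.8, 32.2, 41.2 and 39.5 CPM in 8wk ME libraries, against 47.0, 65.1, 70.5 and 59.2 CPM in 8wk controls. All ME libraries lay below all controls (log2 fold change -0.76 ± 0.15, edgeR adjusted p = 0.00063), and the call held under all 19 alternatives. Stard4 had 167, 146, 142 and 137 CPM in ME, against 174, 189, 197 and 181 CPM in controls, also apart (-0.33 ± 0.09, adjusted p = 0.0101). Its highest ME library was replicate 1.

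Acat2 had 329, 255, 265 and 193 CPM in 8wk ME, against 269, 331, 396 and 369 CPM in controls (-0.39 ± 0.12, edgeR adjusted p = 0.0203). Scd1 (ENSMUSG00000037071; chromosome 19, 44394455 to 44407879) had 24.4, 20.0, 14.7 and 10.7 CPM in ME, against 22.8, 26.1, 24.3 and 30.8 CPM in controls (-0.57 ± 0.20, adjusted p = 0.0325). In both genes replicate 1 of ME lay within the controls and replicate 4 of ME was the lowest library, and neither was called without replicate 4 of ME. Hsd17b7 (ENSMUSG00000026675; chromosome 1, 169949535 to 169969241), a ketosteroid reductase of the sterol steps, had 162, 86.1, 98.3 and 36.0 CPM in ME, against 67.4, 46.9, 45.8 and 47.2 CPM in controls. The first 3 ME libraries lay above all controls and replicate 4 below them (0.88 ± 0.26, edgeR adjusted p = 0.0128). Hsd17b7 was not called without ME replicate 1, by limma-voom, or with only the groups compared.

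Replicate 4 of 8wk ME was the lowest library of its group for all 18 mevalonate and sterol enzymes, and replicate 1 the highest for all 18. Their summed level was 4720, 3434, 3540 and 2108 CPM in 8wk ME replicates 1 to 4, against 3406, 3386, 3749 and 3665 CPM in 8wk controls. One ME library thus lay above and another below all controls. At the other ages the summed levels were tighter, with 1761 to 2010 CPM in ME against 2071 to 2366 CPM in control libraries at E16 and 2594 to 2776 CPM against 2953 to 3365 CPM at P14. The 8 fatty acid genes summed to 2273 to 2868 CPM in 8wk ME against 2140 to 3095 CPM in 8wk control libraries, so no ME library lay outside the controls. Replicate 4 is also the 8wk ME library with the lowest neutrophil markers given above. Of the E16 ME libraries, replicate 4 had the lowest neutrophil markers (41.8 CPM) and the highest summed level of the 18 enzymes (2010 CPM). The part of neutrophil markers in this spread was not tested.

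**Figure D4:**
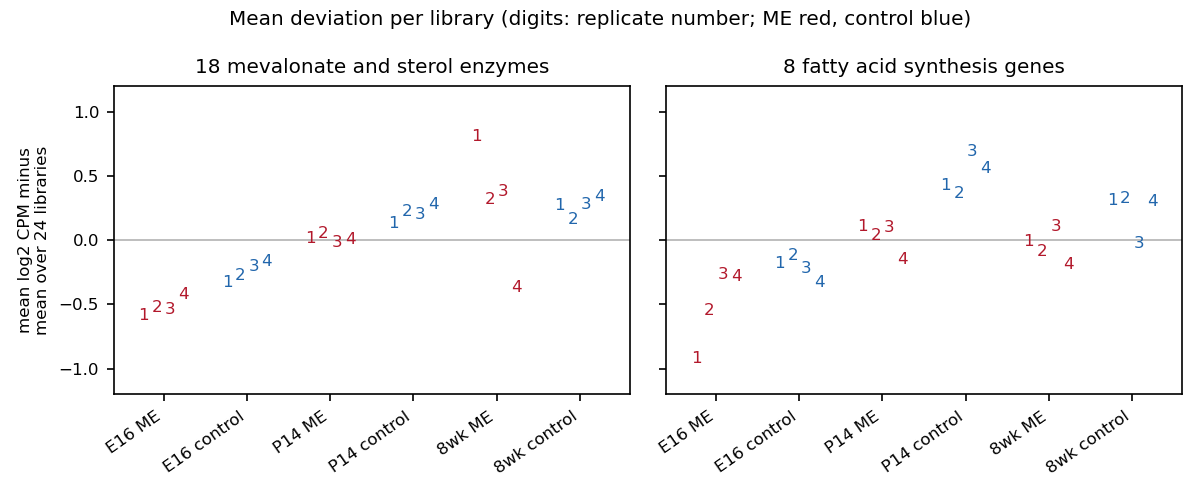
Mean log2 deviation of 18 mevalonate and sterol enzymes (left) and 8 fatty acid genes (right) per library, as digits giving the replicate number, with ME in red left of control in blue at each age. In the left panel the 8wk ME libraries run from -0.371 (replicate 4) to 0.81 (replicate 1), while the 8wk controls lie between 0.162 and 0.339.

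Without the 3 libraries that stand apart, edgeR called 9 of the 30 genes at 8wk, 6 higher and 3 lower, where 17.7% of all genes tested were called higher and 17.2% lower. The higher ones were Insig1, Mvk, the mevalonate kinase (0.52), Tm7sf2, a sterol reductase (0.62), Hsd17b7 (1.31, adjusted p = 1.07e-05), Sc5d, a sterol desaturase (0.77), and Dhcr7 (0.38). The lower ones were Acat2 (-0.37), Stard4 (-0.32) and Elovl6 (-0.92). Without replicate 4 of 8wk ME alone, 4 were higher (Insig1, Mvk, Tm7sf2 and Hsd17b7) and 2 lower (Stard4 and Elovl6), where 13.8% and 13.3% of all genes tested were called higher and lower. Leaving out replicate 3 or 4 of the 8wk controls left 2 or 3 called genes. Over all genes tested 2074 or 2118 were then called higher and 1359 or 2001 lower, against 2684 and 2708 with all libraries.

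Whether the effect of the fusion itself differed between ages was tested as a difference of log2 fold changes, and edgeR called 0 of the 30 genes in each of the 3 pairs, as did DESeq2 and limma-voom. Over all genes tested 0.0211% were called for P14 minus E16, 0.301% for 8wk minus P14 and 0.85% for 8wk minus E16. At an unadjusted p under 0.05 there were 0, 5 and 6 of the 30 genes, against 4.69%, 11.6% and 14.4% of all genes tested. A call at 1 age and not at another is therefore not shown to be a difference between ages with all libraries in the fit. Without the 3 libraries that stand apart, 6 genes were called for 8wk minus P14 and 8 for 8wk minus E16, all higher, where 2.93% and 3.89% of all genes tested were called higher. Hsd17b7 (1.19 and 1.39), Fdft1 (0.70 and 0.69), Sqle (0.44 and 0.49) and Sc5d (1.11 and 1.10) were in both. Lss (0.67) and Dhcr7 (0.47) were added for 8wk minus P14, and Hmgcs1, which makes the precursor of mevalonate (0.51), Mvd, the mevalonate decarboxylase (0.99), Fdps (0.75) and Tm7sf2 (0.83) for 8wk minus E16. Without replicate 4 of 8wk ME alone, the numbers were 2 and 6, all higher, against 0.751% and 1.95% of all genes tested.

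Among control cells, 13 of the 30 genes (43.3%) were called higher by edgeR in P14 marrow than in E16 liver LSK cells and 0 lower, and here age and tissue cannot be told apart. They were 5 of the 11 sterol, 4 of the 8 fatty acid and 2 of the 7 mevalonate genes, with Insig1 and Stard4, while 15.1% of all genes tested were called, 7.61% higher and 7.51% lower. The log2 fold change was positive for 29 of 30 genes, with a median of 0.42 against 0.01 over all genes tested. In 21 genes all P14 libraries lay above all E16 libraries, against 11.9% of all genes. Of the LSK markers 3 of 8 were called higher at P14 and 1 lower. Their sums were 2711 to 3105 CPM in P14 controls against 2429 to 2973 CPM in E16 controls. Markers of other blood cells moved with this comparison too. All 7 neutrophil markers were called lower at P14, with sums of 6.97 to 45.2 CPM in P14 controls against 1082 to 5653 CPM in E16 controls. Of the monocyte and macrophage markers 9 of 10 were called lower (13.5 to 47.3 CPM at P14 against 240 to 453 CPM at E16), of the erythroid markers 5 of 8 (159 to 253 against 861 to 1437 CPM) and of the megakaryocyte markers 4 of 6 (54.0 to 115 against 188 to 493 CPM). Their part in the result was not tested.

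Scd1 had 16.3, 14.4, 17.3 and 19.7 CPM in P14 controls, against 2.98, 2.83, 2.68 and 2.92 CPM in E16 controls. Every P14 library was far above every E16 library (log2 fold change 2.57 ± 0.21, edgeR adjusted p = 1.92e-08). Insig1, with the values given above, stood apart as well (0.96 ± 0.14, adjusted p = 4.2e-05). Scd2 (ENSMUSG00000025203; chromosome 19, 44293674 to 44306864) had 1143, 1127, 1177 and 1229.7 CPM in P14 controls, against 626, 654, 710.1 and 667 CPM in E16 controls, without overlap (0.82 ± 0.12, adjusted p = 7.55e-05). The other 10 called genes were Lss (0.87), Dhcr7 (0.82), Hmgcs1 (0.69), Fdft1 (0.64), Acly (0.61), Nsdhl, a sterol dehydrogenase (0.58), Stard4 (0.52), Acat2 (0.48), Fads1 (0.43) and Sqle (0.41). Fitted on these groups alone, 21 genes were called, and 20 when the 3 libraries standing apart were left out. Calls over all genes tested rose too, from 1441 higher and 1421 lower to 1715 and 1663 on these groups alone. Without the 3 libraries they were 1848 and 1848.

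Between P14 and 8wk, both in marrow, control cells changed in both directions. edgeR called 8 of the 30 genes (26.7%), 5 higher and 3 lower at 8wk, where 12.6% of all genes tested were called, 7.01% higher and 5.58% lower. On library size alone 43.2% of all called genes were higher, against 55.7% with TMM factors. The lower ones were all of fatty acid synthesis: Acly, Fads2 and Scd2. The higher ones were Idi1, Msmo1, Stard4, Insig1 and Scd1. No overlap was seen for 7 genes upward and 6 downward, against 7.88% and 8.22% of all genes. Of the LSK markers 3 of 8 were called lower at 8wk. Their sums were 2066 to 2504 CPM in 8wk controls against 2711 to 3105 CPM in P14 controls. Of the megakaryocyte markers 1 of 6 was called higher at 8wk (204 to 453 against 54.0 to 115 CPM). Of the mast cell and basophil markers 2 of 6 were called higher (75.3 to 178 against 18.6 to 81.5 CPM). Called too were 1 of 7 neutrophil markers, higher, and 1 of 8 erythroid markers, lower. The part of all these markers in the result was not tested.

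Acly had 747, 750.1, 605 and 827 CPM in 8wk controls, against 923, 905, 1194 and 1111 CPM in P14 controls. The ages stood apart (-0.50 ± 0.13, edgeR adjusted p = 0.0149). Fads2 had 382, 369.6, 307 and 443 CPM in 8wk controls, against 453, 445, 541 and 568 CPM in P14 controls, also apart (-0.42 ± 0.12, adjusted p = 0.0229). Idi1 (ENSMUSG00000058258; chromosome 13, 8885501 to 8892451), the isomerase that readies isoprene units for joining, had 220.1, 301, 372 and 304 CPM in 8wk controls, against 185, 219, 159 and 206 CPM in P14 controls. Its 8wk libraries all lay above those of P14, by a narrow margin for replicate 1 (0.64 ± 0.18, adjusted p = 0.0254).

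Msmo1, a sterol methyl oxidase (0.68 ± 0.20), Scd1 (0.62 ± 0.20), Insig1 (0.43 ± 0.14), Stard4 (0.31 ± 0.09) and Scd2 (-0.41 ± 0.12) had edgeR adjusted p between 0.0282 and 0.0468. The number called depended on single libraries: 3, 0 and 4 genes were called without P14 control replicates 1, 3 and 4. It was 1 without 8wk control replicate 2 or 3. Calls over all genes tested fell too, from 1327 higher and 1057 lower to 489 and 440 without P14 control replicate 3. Without 8wk control replicate 3 they were 421 and 568. With a GC correction, or without the count filter, 4 of these genes were called, 1 higher and 3 lower. Over all genes tested 1073 or 774 were then called higher and 986 or 709 lower.

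Across the whole span, 12 of the 30 genes (40%) were higher in 8wk marrow than in E16 liver controls, where 23.3% of all genes tested were called, 12.5% higher and 10.8% lower. All 12 calls were upward, and 17 genes lay higher without overlap, against 12.6% of all genes. Lower without overlap was 1 gene, Srebf1, against 13.1% of all genes. Of the LSK markers 2 of 8 were called higher at 8wk and 1 lower. Their sums were 2066 to 2504 CPM in 8wk controls against 2429 to 2973 CPM in E16 controls. Here too markers of other blood cells were called lower, namely 7 of 10 of monocytes and macrophages (22.3 to 307 CPM in 8wk controls against 240 to 453 CPM in E16 controls), 6 of 8 erythroid ones (81.4 to 185 against 861 to 1437 CPM), 4 of 6 of megakaryocytes (204 to 453 against 188 to 493 CPM) and 2 of 7 of neutrophils (18.0 to 834 against 1082 to 5653 CPM). Their part in the result was not tested. Scd1 had 22.8, 26.1, 24.3 and 30.8 CPM in 8wk controls, against 2.98, 2.83, 2.68 and 2.92 CPM in E16 controls (log2 fold change 3.19 ± 0.22, edgeR adjusted p = 5.59e-10). Insig1 had 246, 219, 243 and 219 CPM in 8wk controls, against 87.4, 92.1, 100.4 and 73.9 CPM in E16 controls (1.39 ± 0.14, adjusted p = 2.82e-07). Stard4 had 174, 189, 197 and 181 CPM in 8wk controls, against 98.2, 104, 108 and 108 CPM in E16 controls (0.83 ± 0.09, adjusted p = 7.68e-07). All 3 genes were apart at these ages. The other called genes were Msmo1 (1.10), Idi1 (1.05), Hmgcs1 (0.95), Cyp51 (0.76), Fdft1 (0.70), Lss (0.60), Nsdhl (0.51), Acat2 (0.44) and Scd2 (0.40). Srebf1 and Srebf2 were not called in any pair of control ages, at -0.47 ± 0.20 and -0.17 ± 0.16 for 8wk against E16.

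**Figure D5:**
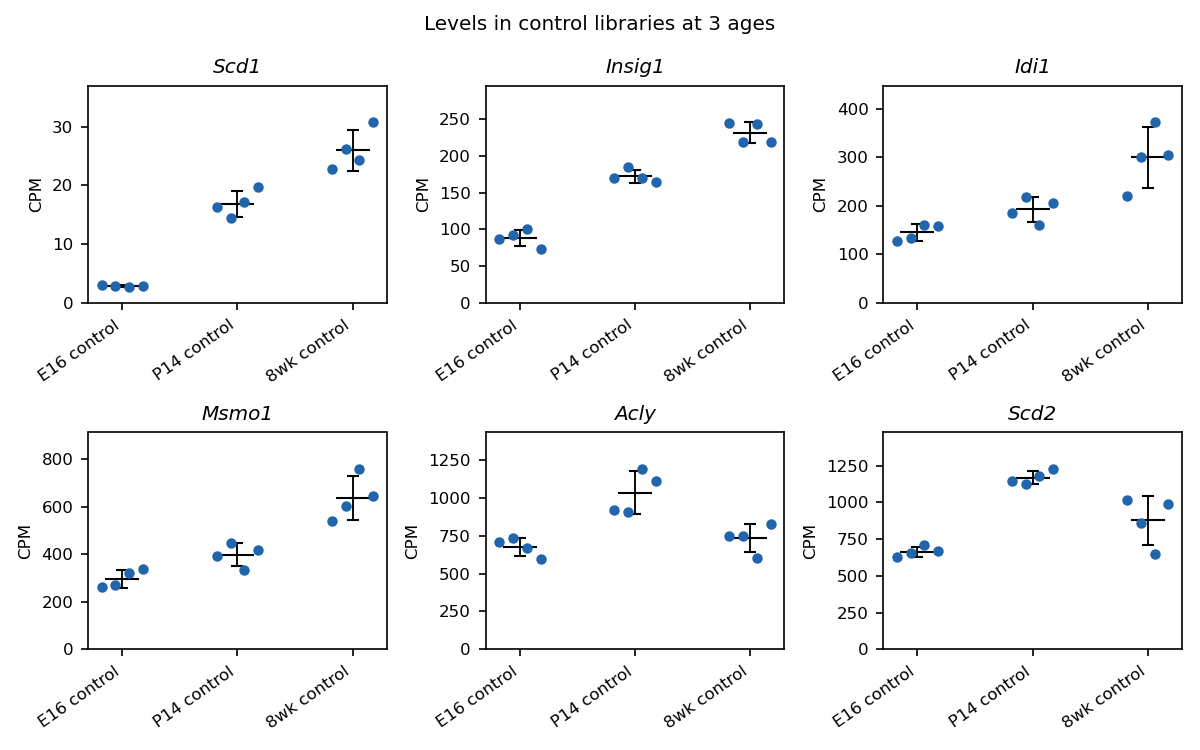
CPM per library of 6 genes in control cells at E16, P14 and 8wk, with mean and SD (n = 4). Scd1, Insig1, Idi1 and Msmo1 are highest at 8wk, while Acly and Scd2 are highest at P14.

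The balance of the 2 desaturases differed between ages. Per length, Scd1 made up 0.395 to 0.606% of Scd1 plus Scd2 in E16 ME and 0.420 to 0.529% in E16 control libraries. The share was 1.12 to 1.59% in P14 ME and 1.40 to 1.76% in P14 controls, and 1.69 to 2.77% in 8wk ME and 2.45 to 4.03% in 8wk controls. The ranges of the 3 ages did not overlap within control cells or within ME cells, while ME and control overlapped at each age. Of Scd1, 4.56% of its stretches of 50 bases also occur in other genes, Scd2 among them.

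Genes next to these pathways were read from 5 further lists, against the shares called over all genes given above. Among other sterol and SREBP pathway genes, Tmem97, an SREBP target that acts on cholesterol transport, averaged 138 ± 15.7 CPM in E16 ME and 228 ± 10.1 CPM in E16 controls (SD, n = 4 each; log2 fold change -0.72 ± 0.13, edgeR adjusted p = 0.00045). At P14 it averaged 144 ± 2.97 CPM in ME and 225 ± 18.8 CPM in controls (-0.65 ± 0.13), and at 8wk 156 ± 34.9 CPM in ME and 213 ± 36.5 CPM in controls (-0.44 ± 0.13). It was thus called lower at each age, with no overlap at E16 and P14. Acat1, the mitochondrial thiolase, was higher in ME at E16 (0.27 ± 0.09) and lower at 8wk (-0.32 ± 0.09), and that difference of effects was itself called (-0.59 ± 0.12, adjusted p = 0.0197). Mbtps2, a protease that frees SREBP, was lower at 8wk (-0.41 ± 0.14).

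Of 9 tested LXR target and cholesterol efflux or storage genes, which act when sterols are high, 3 were higher in ME at E16, and 2 were higher and 1 lower at P14. At 8wk edgeR called 0 of the 9, with 2 at an unadjusted p under 0.05 (Abca1 and Apoe), while DESeq2 called 2 and limma-voom 0. Apoe, a cholesterol-carrying apolipoprotein, averaged 15.8 ± 1.43 CPM in E16 ME and 5.75 ± 1.18 CPM in E16 controls (log2 fold change 1.46 ± 0.37, edgeR adjusted p = 0.00652), and 31.8 ± 12.2 CPM in P14 ME and 10.7 ± 4.19 CPM in P14 controls (1.57 ± 0.36, adjusted p = 0.00349). Smpdl3a, a phosphodiesterase known in human macrophages as an LXR target, was higher at E16 (1.09 ± 0.18) and P14 (0.55 ± 0.18). Abca1, a cholesterol efflux pump, was higher at E16 (1.31 ± 0.46), at low levels of 11.6 ± 1.69 CPM in ME and 4.67 ± 1.21 CPM in controls. Lpcat3, a phospholipid remodelling enzyme, was lower at P14 (-0.29 ± 0.10). Abca1 and Apoe are also expressed by macrophages. The 10 monocyte and macrophage markers summed to 45.8 to 365 CPM in E16 ME against 240 to 453 CPM in E16 controls. At P14 they summed to 17.0 to 63.6 CPM in ME against 13.5 to 47.3 CPM in controls. Of these 10 markers edgeR called 4 higher in P14 ME and limma-voom 0. Their part in these results was not tested.

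Of 15 other fatty acid and glycerolipid synthesis genes, 1 was higher and 3 lower at both E16 and P14, and 1 was higher and 2 lower at 8wk. Mlxip, a glucose-responsive transcription factor, was higher in ME at each age, with 54.0 ± 8.61 CPM in ME and 26.2 ± 7.52 CPM in controls at E16 (log2 fold changes 1.04 ± 0.24, 0.91 ± 0.23 and 1.18 ± 0.24, edgeR adjusted p = 0.00296, 0.00752 and 0.000873 at E16, P14 and 8wk). Elovl1, an elongase of very long chains, was lower at E16 (-0.49 ± 0.10) and P14 (-0.46 ± 0.10), as was Tecr, the reductase that ends each elongation cycle (-0.29 ± 0.08 and -0.26 ± 0.08). At 8wk Elovl7, another elongase, was lower (-0.76 ± 0.13), with Hacd2, the dehydratase of that cycle (-0.35 ± 0.11). Of 12 fatty acid oxidation genes, 2 were lower at E16, 3 at P14 and 3 at 8wk, with Hadh, which works in short-chain oxidation, at -0.56 ± 0.10 at 8wk. Hadhb, a subunit of the trifunctional protein, was called lower at each age (-0.27 ± 0.08, -0.26 ± 0.08 and -0.23 ± 0.08).

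Of 9 genes that use mevalonate products for other ends than sterol, 2 were higher and 1 lower at E16 and at P14, and 1 was higher and 3 lower at 8wk. Coq2, which attaches the isoprenoid tail of coenzyme Q, averaged 88.5 ± 28.4 CPM in E16 ME and 13.1 ± 3.82 CPM in E16 controls (log2 fold change 2.75 ± 0.34, edgeR adjusted p = 1.05e-05). At P14 it averaged 103 ± 33.1 CPM in ME and 10.2 ± 4.31 CPM in controls (3.34 ± 0.35, adjusted p = 1.25e-06), and at 8wk 105 ± 30.8 CPM in ME and 16.4 ± 4.11 CPM in controls (2.67 ± 0.34, adjusted p = 1.45e-05). Its groups did not overlap at any age. Pdss1, which makes that tail, went the other way, with 28.8 ± 3.37, 24.7 ± 1.80 and 25.8 ± 3.65 CPM in ME at E16, P14 and 8wk, against 44.4 ± 3.38, 39.2 ± 2.90 and 41.4 ± 4.44 CPM in controls. It was lower at each age without overlap (-0.62 ± 0.12, -0.67 ± 0.12 and -0.68 ± 0.12). Nus1, which takes part in dolichol synthesis, was higher at E16 (0.84 ± 0.25) and P14 (0.89 ± 0.25), and Pdss2, the partner of Pdss1, was lower at 8wk (-0.42 ± 0.12).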

How the data were processed

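Bulk RNA-seq of 24 libraries was read from raw counts per gene as deposited, with 1 column per library. Reads were processed with STAR 2.7.9a and featureCounts 2.0.3 on GRCm38, per the submitters' processing notes. Per the labels' protocols, RNA came from an RNeasy Plus extraction and a Clontech SMART-type kit was used for the libraries. Which annotation, strand setting or filter was used is not given in the sources used here. The table's 55774 lines held 55487 identifiers, of which 168 were repeated and kept once. Even numbers made up a median of 63.6% of the counts from 1 to 20, so mates may be counted separately and counting errors may be larger than the counts imply.

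Groups and replicate numbers came from the sample titles. Genes were filtered with filterByExpr (minimum count 10), and all 24 libraries were fitted with edgeR 4.0.16 (R 4.3.3), using a mean for each group, TMM scaling and its robust quasi-likelihood F-test. Calls were made at a Benjamini-Hochberg adjusted p under 0.05 over all 18931 genes tested. The 9 comparisons were ME against control at 3 ages, the differences of these effects, and the pairs of control ages. GENCODE M21 gave coordinates and exon lengths, and RefSeq gave promoters; that windows with more than 30 bases inside the GENCODE gene are not shown was decided after they were seen.

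The 30 genes and the further lists were chosen with earlier results of these data known. Library values are printed for the regulators, for the 6 called genes of smallest adjusted p in each ME comparison and for 3 in each pair of control ages; of each further list, up to 3 called genes per ME comparison are named, with others named after their values were seen. Of the other sterol and SREBP pathway genes 1 result, and with it the count over that list, is not reported here. Alternatives were RLE factors, library size only, a GC correction, no filter, at least 1 CPM in 4 libraries, DESeq2 1.42.0, voom of limma 3.58.1, only the groups compared, a replicate block, a Y-linked covariate and leaving out each library. The fits without 3 libraries and with a block in the P14 libraries alone were chosen after seeing the data. Same-numbered ME and control libraries deviated together weakly at P14 (r = 0.187, 0.143, 0.137 and 0.232 across genes for replicates 1 to 4). They did not at E16 (-0.043 to 0.001) or, as a set, at 8wk (-0.088 to 0.118). P14 ME replicates 1 and 4 correlated best with the control of their own number. P14 ME replicates 2 and 3 correlated best with control replicates 1 and 4. The pairing is read from the data only and is uncertain. No 2 replicates held identical counts.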

Additional observations from a re-analysis of the deposited data

Results flagged for a closer look

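In 9 of 180 combinations of gene and group, 1 library lay apart from the other 3 by Dixon's test at 95%, which chance gives in about 1 in 20 groups. Replicate 4 of E16 ME, one of the libraries that stand apart in myeloid markers, was the high one for 3 genes. It had 196 CPM of Dhcr7 against 104 to 115 in the other E16 ME libraries, 111 CPM of Fdft1 against 87.9 to 90.5, and 103 CPM of Stard4 against 79.2 to 81.2. Replicate 1 of 8wk control, another of these libraries, had 67.4 CPM of Hsd17b7 against 45.8 to 47.2 in the other 8wk controls.

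The other cases fell on 5 further libraries. Mvk was at 45.6 CPM in replicate 1 of P14 ME against 31.0 to 33.2 in the rest of its group, and at 38.3 CPM in replicate 4 of E16 control against 34.1 to 34.7. Tm7sf2 was at 32.8 CPM in replicate 1 of E16 ME against 28.2 to 28.9, and at 25.6 CPM in replicate 2 of 8wk control against 37.2 to 39.1. Pmvk, the phosphomevalonate kinase, was at 38.1 CPM in replicate 1 of E16 control against 42.8 to 43.7.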

How the results depend on the processing

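In the 3 comparisons of ME against control no call of the 30 genes turned its direction under any alternative, and calls were lost or gained. The number called in ME against control at E16, 5 in the main setting, was 0 with library size only, 1 without the filter, 3 with the Y-linked covariate, 8 with only the groups compared and 13 without the 3 libraries that stand apart; without 1 library it was 0 to 4. At P14 it was 9, then 5 with library size only and 4 to 10 without 1 library. At 8wk it was 5, then 1 with only the groups compared, 9 without the 3 libraries and 2 to 6 without 1 library. The differences of effects, 0 called in the main setting, were 6 for 8wk minus P14 and 8 for 8wk minus E16 without the 3 libraries, and 0 to 2 and 0 to 6 without 1 library. Control P14 against E16, 13, was 21 with only the groups compared, 20 without the 3 libraries and 12 to 17 without 1 library. Control 8wk against P14, 8, was 4 with a GC correction, 4 without the filter and 0 to 9 without 1 library. For control 8wk against E16, 12, no alternative moved the number by over 1.5 times. Numbers called over all genes tested moved as well. At 8wk they went from 2684 higher and 2708 lower to 1974 and 933 with only the groups compared. In that setting they went from 2522 and 1603 to 2301 and 1590 at E16. For control P14 against E16 they went from 1441 and 1421 to 1715 and 1663. The causes were not tested.

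Numbers may pair libraries at P14 only, and there only in part. The replicate block over all libraries gave 6, 8 and 5 called genes at E16, P14 and 8wk, and 13, 7 and 12 in the control pairs. With the P14 libraries alone it gave 11 at P14. Over all genes tested, the block over all libraries called 2655 higher and 1602 lower at E16. At P14 these were 2592 and 1741, and at 8wk 2882 and 2708. In the control pairs they were 1516 and 1563 for P14 against E16, and 1317 and 1032 for 8wk against P14. For 8wk against E16 they were 2438 and 2185. Beside Ebp at P14 the block is given only here for the other ages, whose libraries share just a number. Log2 fold changes here are mostly under 0.6 with SE of 0.09 to 0.26, so many lie close to what 4 libraries a group can call.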
